A study of Mus musculus with 4 samples.

Results

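Erg, Fli1, Ets1, Sox7, Sox18, Gata2, Tal1, Lmo2, Foxf1 and Mef2c, transcription factors that shape the identity of endothelial cells (ECs), were followed in RNA sequencing of mouse lung ECs after unilateral pneumonectomy (PNX). They are 10 of the 24063 gene symbols in the deposited tables, taken by symbol, each with its transcript that held the most counts over all libraries, and all 10 are among the 16208 genes that passed the filter on low counts. The question was how these factors differ between post-PNX and sham-operated lungs. The ECs came from C57BL6J mice of 8 weeks without a transgene and were captured in 2 passes over magnetic columns with beads against CD31, a surface protein that platelets and some leukocytes also carry. By the study's methods, the captured cells were checked by flow cytometry as CD31+, VE-Cadherin+ and CD45-. Post-PNX ECs were taken 7 days after the left lung was removed, and the sham-operated mice had a thoracotomy without removal of a lobe. The sample titles give no day after surgery for the sham libraries. Each group had 2 libraries, and each library pooled the cells of 2 mice, so that a spread between libraries is a spread between pools.

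Erg, Fli1 and Ets1 bind DNA through the ETS domain, whose core motif lies in most endothelial enhancers, and ERG keeps junction genes such as Cdh5 active. SOX7 and SOX18 belong to the SoxF group, which acts in vessel formation and arterial and lymphatic fate. GATA2, TAL1 and the bridging protein LMO2 form one complex in blood and endothelial progenitors, FOXF1 is needed for lung capillaries, and MEF2C is a MADS-box factor whose activity is held back by class IIa histone deacetylases. Several of them also work in other cells of the lung: Ets1 in lymphocytes, Fli1 in megakaryocytes and leukocytes, Gata2, Tal1 and Lmo2 in mast cells and blood progenitors, Foxf1 in lung mesenchyme, and Mef2c in B cells, myeloid cells and muscle.

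With 1 transcript per gene the libraries held between 41367438 and 50952879 counts. Values below are normalized counts, that is counts scaled to a common library size with edgeR's TMM factors, which lay between 0.9985 and 1.0026, and 3 counts correspond to 0.0589 to 0.0725 CPM. The labels give the mice as male, yet no read was counted in any library on the 44 listed genes of the Y chromosome, and Xist, which is transcribed from the inactive X chromosome, had between 31872 and 33792 normalized counts. All 4 libraries go against this label in the same way, so no library was left out for it. The 12 endothelial surface and junction genes that served as a check of the cell type were present in every library, with summed normalized counts of 573088 to 578934 in sham and 475888 to 477633 in post-PNX ECs, while Sftpc, the surfactant gene of alveolar type 2 cells, had mean values of 171015 and 111027. As deposited FPKM, a value per transcript length, Sftpc had means of 2890 in sham and 1890 in post-PNX ECs, and the macrophage marker Lyz2 1860 and 2160. The highest of the 12 endothelial genes were Egfl7 at 458 in sham and Pecam1 at 374 in post-PNX ECs. Ptprc, which encodes CD45, had mean normalized counts of 11566 and 11543. The libraries thus held RNA of other cell types, and ECs here stands for the captured cells. In bulk RNA, fewer cells of a type and less RNA per cell cannot be told apart.

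Of the 10 factors, 8 were lower and 2, Sox18 and Mef2c, were higher in post-PNX ECs, called where the adjusted p was under 0.01 in the quasi-likelihood F test of edgeR, with p adjusted by Benjamini and Hochberg's method across the genes that passed the filter. When the libraries were scaled to the 12 endothelial genes in place of TMM, only Gata2 and Foxf1 were lower and 4 factors, Sox18, Mef2c, Fli1 and Ets1, were higher. Over all genes, 57.1% were called at this threshold under TMM, 29.3% higher and 27.8% lower, and the scaling to endothelial genes called 61.3% higher and 7.77% lower. None of the 10 passed the study's stricter rule, which also asks for a log2 fold change beyond 1 and which 7.56% of all genes met. The median log2 fold change of the factors was -0.24 under TMM, beside 0.001 over all genes, and 0.05 under the scaling to endothelial genes, beside 0.28 over all genes. Sham and post-PNX values overlapped in none of the 10 factors, as in 81.2% of all genes, and the median SD within a group was 0.0254 on the log2 scale for the factors and 0.0361 for all genes tested.

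**Figure D1:**
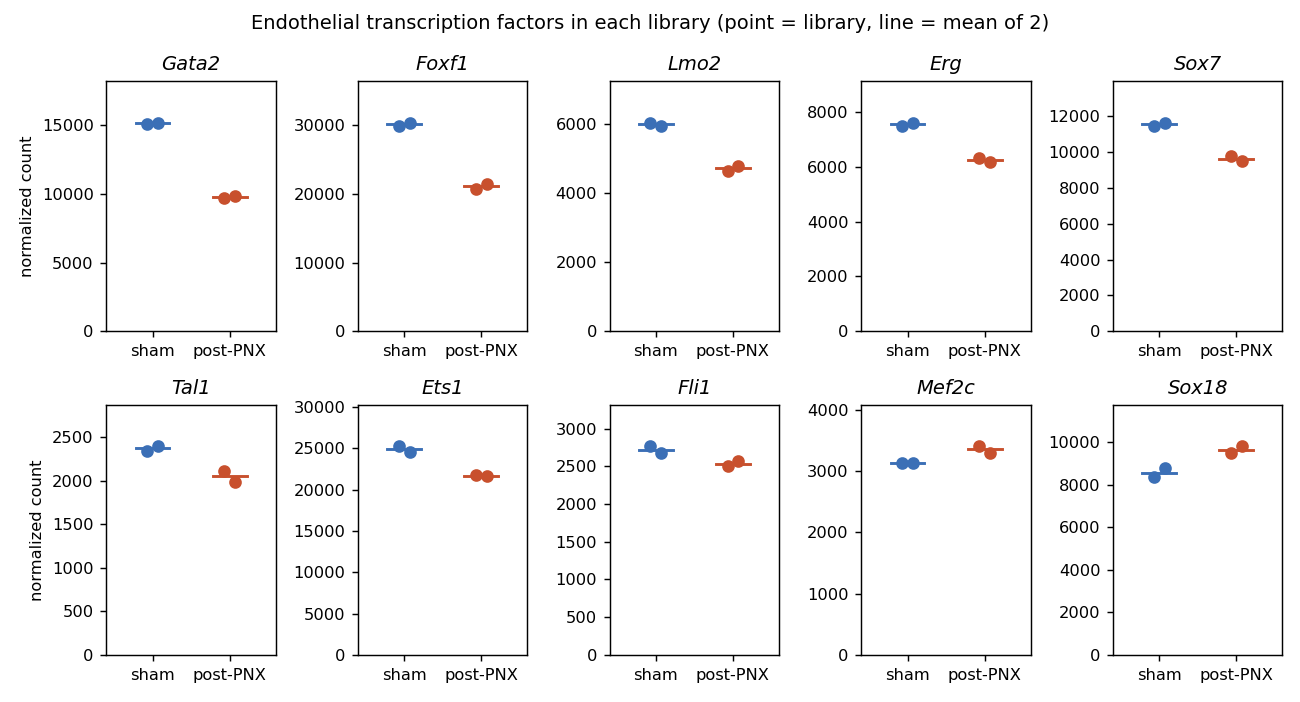
Normalized counts (y axis from 0) of the 10 factors in each sham (blue) and post-PNX (red) library, with each point a library and each line the mean of 2. Gata2 and Foxf1 show the widest gaps between groups under this TMM scaling, and the post-PNX points lie above the sham points only in Mef2c and Sox18.

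GATA2, a zinc finger factor that binds GATA motifs and is required for lymphatic valves and blood progenitors, showed the largest change of the 10. The gene lies on the forward strand at chr6:88193891-88207032 in mm10. In sham ECs its normalized counts were 15094 and 15177, and in post-PNX ECs they were 9710 and 9870. Both post-PNX libraries were far below both sham libraries. Gata2 fell by 35.3%, a log2 fold change of -0.63 (standard error 0.021, edgeR adjusted p = 1.0e-35), and it stayed lower at -0.35 (edgeR adjusted p = 2.1e-13) when scaled to endothelial genes.

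TAL1, the basic helix-loop-helix partner that binds E-boxes, is encoded at chr4:115056426-115071755 on the forward strand. Its normalized counts were 2345 and 2392 in sham and 2108 and 1989 in post-PNX ECs. The groups were separate, although the post-PNX libraries differed from each other by more than the sham libraries did. Tal1 fell by 13.4% (log2 fold change -0.21, standard error 0.037, edgeR adjusted p = 1.4e-06), and scaled to endothelial genes its log2 fold change was 0.08 with an interval from -0.002 to 0.152.

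LMO2, which binds no DNA itself and bridges TAL1 and GATA factors through LDB1, is encoded at chr2:103957903-103981878 on the forward strand. Lmo2 had 6048 and 5961 normalized counts in sham and 4655 and 4806 in post-PNX ECs. Both post-PNX values were clearly under the sham values. It fell by 21.3% (log2 fold change -0.35, standard error 0.026, edgeR adjusted p = 3.6e-18), and the change was -0.06 (edgeR adjusted p = 0.042) under the scaling to endothelial genes.

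The sequence before a transcription start is shown for Gata2 and Tal1 because these genes were lower together under TMM. The factors of this complex also bind GATA motifs and E-boxes. The windows hold the 250 bases before a RefSeq start, on the gene's strand, at chr6:88193641-88193890 before the first start of Gata2, at chr4:115056176-115056425 before the first start of Tal1 and at chr4:115057561-115057810 before the start of the deposited Tal1 transcript. The motifs searched on both strands are in capitals where present. They are GGAAG, a form of the ETS motif, held by 64.1% of 32851 windows of the same length, GATAA, held by 22.6%, and the E-box CANNTG, held by 66.2%. Other strings with the ETS core GGAA were not searched and are not marked. RefSeq windows (GRCm38.p6) were given for 4 of the 10 factors, Erg, Gata2, Tal1 and Mef2c, with 10 starts in all, and of the 6 windows of these genes that are not printed 4 hold GGAAG and 2 hold GATAA.
Gata2: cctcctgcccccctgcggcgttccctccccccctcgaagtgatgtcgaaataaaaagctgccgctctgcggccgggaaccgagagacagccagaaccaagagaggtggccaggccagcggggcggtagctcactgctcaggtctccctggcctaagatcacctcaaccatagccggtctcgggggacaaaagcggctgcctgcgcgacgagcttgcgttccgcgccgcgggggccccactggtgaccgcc
Tal1, first start: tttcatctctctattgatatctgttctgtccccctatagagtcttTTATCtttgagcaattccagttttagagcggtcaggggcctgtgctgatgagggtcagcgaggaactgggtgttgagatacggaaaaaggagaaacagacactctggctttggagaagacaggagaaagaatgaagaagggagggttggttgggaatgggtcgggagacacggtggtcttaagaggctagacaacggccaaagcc
Tal1, deposited transcript: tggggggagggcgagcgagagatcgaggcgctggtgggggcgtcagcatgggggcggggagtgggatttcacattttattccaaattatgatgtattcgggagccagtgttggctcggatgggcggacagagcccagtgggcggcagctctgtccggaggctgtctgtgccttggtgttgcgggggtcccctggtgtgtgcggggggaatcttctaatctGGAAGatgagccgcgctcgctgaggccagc
The Gata2 window holds none of the searched motifs, the first Tal1 window holds 1 GATAA on the opposite strand, and the second holds 1 GGAAG. The deposited Gata2 transcript starts further on, at base 88198334, and no window before that start was given.

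Among the 7 other GATA factors and their FOG cofactors, 4 were higher and 0 lower under TMM, and 6 were higher and 0 lower when scaled to endothelial genes. The 3 not called under TMM were Gata1, Gata3 and Zfpm1, chosen after their values were seen, with log2 fold changes of 0.35, -0.07 and -0.08. Gata6, which acts in lung epithelium, mesenchyme and vessels, had 1201 and 1252 normalized counts in sham and 1853 and 1971 in post-PNX ECs and rose by 0.64 on the log2 scale (edgeR adjusted p = 1.6e-20). Gata5 rose by 0.63 and the cofactor Zfpm2 (FOG2) by 1.01, and Gata4, chosen after its values were seen and low at a mean of 44.34 and 137.2 normalized counts, was the other gene called. The level of Gata2 was 12.2 times that of Gata6 in sham and 5.05 times in post-PNX ECs as a ratio of FPKM within a library, which does not depend on the scaling between libraries.

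The relatives and partners of TAL1 and LMO2 split, with 2 of 12 tested higher, 6 lower and 4 not called under TMM, and 7 higher and 1 lower when scaled to endothelial genes. Cbfa2t3 (ETO2), a corepressor of the TAL1 complex, fell by 0.63 on the log2 scale (edgeR adjusted p = 4.1e-32), from a mean of 8658 to 5597 normalized counts, and was lower under both scalings. Hhex, a homeobox factor of early endothelium, fell by 0.35. The adaptors Ldb1 and Ldb2, through which LMO2 is joined to its partners, fell by 0.26 and 0.25 under TMM and had log2 fold changes of 0.03 and 0.03 when scaled to endothelial genes. Lyl1, the close paralog of Tal1, and Lmo1, a paralog of Lmo2, both chosen after their values were seen, rose by 0.19 and 0.95, and the within-library ratio of Tal1 to Lyl1 went from 1.13 to 0.856. The count of 2 higher genes became 1 without sham replicate 2, without PNX replicate 1 and with DESeq2's Wald test.

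Mast cell and basophil markers went both ways under TMM, with 4 of 8 higher and 2 lower, and 5 were higher and 0 lower when scaled to endothelial genes. The count of 2 lower became 1 with any library left out, with a mean of at least 50 counts and with DESeq2's Wald test. Their summed normalized counts lay between 23449 and 23567 in sham and between 19164 and 19435 in post-PNX ECs, most of which was Kit, a receptor that lung capillary ECs also express, at means of 23095 and 18261. Cpa3, a mast cell protease gene, was at 241.8 and 374.2. The protease genes Cma1, Mcpt4 and Tpsb2, chosen after their values were seen, rose while the sum fell. Their means went from 29.33, 19.76 and 2.831 in sham to 296.4, 91.38 and 168.2 in post-PNX ECs. Besides Kit, the gene called lower was Ms4a2, at 60.02 and 36.99. The megakaryocyte and platelet markers summed to 2673 to 2789 in sham and 3977 to 4014 in post-PNX ECs, with Itga2b at means of 976.3 and 1268 and Ppbp at 786.9 and 936.7. Of the erythroid genes, Hbb-bs had means of 3096 and 3297 and Hba-a1 of 1522 and 1629, the latter with the same counts as its copy Hba-a2. None of these markers was at 0 in all libraries, and their part in the values of Gata2, Tal1 and Lmo2 was not tested.

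FOXF1, the forkhead factor needed for lung capillaries, was the second of the 10 in size of change. Foxf1 lies at chr8:121084386-121088154 on the forward strand and its normalized counts were 29968 and 30378 in sham and 20747 and 21430 in post-PNX ECs. Both post-PNX values were well under the sham values. Foxf1 fell by 30.1% (log2 fold change -0.52, standard error 0.019, edgeR adjusted p = 1.2e-33), and by 0.23 on the log2 scale (edgeR adjusted p = 6.7e-11) when scaled to endothelial genes. A microRNA gene on the opposite strand, Gm27530, shares 98 bases, or 4.06%, of its exons.

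Fendrr, a long noncoding RNA transcribed away from Foxf1, begins 1275 bases from it, at chr8:121054882-121083110 on the reverse strand. Its normalized counts were 14378 and 14259 in sham and 10863 and 10597 in post-PNX ECs. Fendrr was thus lower in both post-PNX libraries, like its neighbour. It fell by 0.42 on the log2 scale (edgeR adjusted p = 1.7e-26) and by 0.13 (edgeR adjusted p = 5.5e-06) when scaled to endothelial genes. The ratio of Foxf1 to Fendrr FPKM within a library was 2.05 and 2.09 in sham and 1.87 and 1.98 in post-PNX ECs. The 250 bases before the start of Fendrr, at chr8:121083111-121083360 and read on its strand, lie in the gap between these genes and are shown for that reason, with GGAAG in capitals.
Fendrr: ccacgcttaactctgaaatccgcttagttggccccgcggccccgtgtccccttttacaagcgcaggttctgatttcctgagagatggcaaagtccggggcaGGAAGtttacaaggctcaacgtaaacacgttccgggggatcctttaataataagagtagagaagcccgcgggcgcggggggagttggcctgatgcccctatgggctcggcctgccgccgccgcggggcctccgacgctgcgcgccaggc
The window holds 1 GGAAG, and no GATAA or CANNTG.

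Of the 11 genes in the list of other forkhead factors and Fendrr, 3 were higher and 6 lower under TMM, and 5 were higher and 2 lower when scaled to endothelial genes. Foxp2 fell by 0.55, Foxo4 by 0.43 and Foxo3, a FOXO factor that acts downstream of insulin and AKT signals, by 0.37 on the log2 scale under TMM. The higher ones were Foxf2, Foxl1 and Foxp4, chosen after their values were seen, and the count of 3 became 1 without PNX replicate 2 and with DESeq2's Wald test. Foxf2, the paralog of Foxf1 in lung mesenchyme and pericytes, had means of 1278 and 1572 normalized counts and rose by 0.30 (edgeR adjusted p = 1.7e-08).

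Foxf1 is also a gene of lung mesenchyme, and markers of mesenchymal cells, most but not all of them, were higher in the same post-PNX libraries. Of 7 fibroblast markers 5 were higher and 1 lower under TMM, 6 were higher and 0 lower when scaled to endothelial genes, and their summed normalized counts were 61429 to 62019 in sham and 223349 to 224945 in post-PNX ECs. The collagen genes Col3a1, at means of 18233 and 88244, and Col1a2, at 14036 and 59343, made up most of the sum in post-PNX ECs. Of the markers of resident lung fibroblasts, chosen after their values were seen, Pdgfra had means of 14405 and 12287 and fell by 0.23 on the log2 scale under TMM but was not called under the other scaling (0.05), and Tcf21 had means of 3030 and 3066 and was not called under TMM. Smooth muscle and pericyte markers, 6 of 7 higher and 0 lower, summed to 24366 to 24662 and 32197 to 32271, with Pdgfrb at means of 5913 and 7153 and Tagln at 4904 and 6764. The mesothelial markers, all 6 of them higher, summed to 11529 to 11667 and 23941 to 24354, with Krt19 at means of 4323 and 5101 and Msln at 2232 and 8744. None of these markers was at 0 in all libraries. Their part in the value of Foxf1 was not tested.

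ERG, the ETS factor used most often to mark endothelial nuclei, is encoded at chr16:95359169-95586600 on the reverse strand. Erg had 7494 and 7602 normalized counts in sham and 6305 and 6158 in post-PNX ECs. Both post-PNX libraries lay under the sham libraries. Erg fell by 17.4% (log2 fold change -0.28, standard error 0.024, edgeR adjusted p = 1.1e-15), and its log2 fold change was 0.01, with an interval from -0.044 to 0.057, when scaled to endothelial genes.

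Ets1, on the forward strand at chr9:32636241-32757820, and Fli1, on the reverse strand at chr9:32422204-32543432, are neighbours 92.8 kb apart. Ets1, a factor of angiogenic ECs and lymphocytes, had 25248 and 24519 normalized counts in sham and 21742 and 21627 in post-PNX ECs. The groups did not overlap, and the post-PNX pair was the closer one. Ets1 fell by 12.9% under TMM (log2 fold change -0.20, standard error 0.019, edgeR adjusted p = 2.1e-14) and was higher by 0.08 on the log2 scale (edgeR adjusted p = 6.3e-04) when scaled to endothelial genes.

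Fli1, the close paralog of Erg, had 2763 and 2678 normalized counts in sham and 2502 and 2568 in post-PNX ECs. The gap between groups was hardly wider than the gap within them. Fli1 fell by 6.92% under TMM (log2 fold change -0.10, standard error 0.034, edgeR adjusted p = 0.00573) and was higher by 0.18 (edgeR adjusted p = 5.9e-05) when scaled to endothelial genes. The TMM call was lost without sham replicate 1 (-0.08, adjusted p = 0.0765), without PNX replicate 1 (-0.08, adjusted p = 0.0912), with DESeq2's Wald test (adjusted p = 0.0791) and with counts summed over transcripts (edgeR adjusted p = 0.0176). As ratios of FPKM within a library, Erg to Fli1 was 3.89 and 4.07 in sham and 3.61 and 3.44 in post-PNX ECs, and Ets1 to Fli1 was 5.73 and 5.75 against 5.45 and 5.28.

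Of the other 23 ETS factors, 21 were tested, of which 5 were higher, 10 lower and 6 not called under TMM, and 11 were higher and 6 lower when scaled to endothelial genes. Ets2, the paralog of Ets1 and the one with the highest FPKM, fell from a mean of 19168 to 13825 normalized counts, by 0.47 on the log2 scale (edgeR adjusted p = 1.5e-30), and Etv5, which is also expressed in alveolar type 2 cells, fell by 0.47. Spib, a B cell and dendritic cell factor, fell by 0.96 and Ehf, an epithelial one, by 0.67. The only one past a log2 fold change of 1 was Etv4, chosen after its values were seen, which is induced by fibroblast growth factor signals, with means of 8.494 and 128.5. Etv2, which starts the endothelial programme in the embryo, had 0 counts in all libraries.

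Most lymphocyte markers were lower under TMM, as were Ets1 and Fli1, but these 2 factors were higher when scaled to endothelial genes. The 5 B cell markers used were all lower under both scalings. Their sums were 4904 to 5080 in sham and 2739 to 2810 in post-PNX ECs, with Cd79a at means of 1613 and 882.3 and Cd79b at 1263 and 725.2. Of 9 T cell and NK cell markers 7 were lower and 0 higher under TMM, against 5 and 1 when scaled to endothelial genes, with sums of 3872 to 3926 and 2813 to 2814, Cd2 at means of 1429 and 1308 and Lck at 695.6 and 431.9. Of 6 pan-leukocyte genes 3 were higher and 1 lower under TMM and all 6 higher under the other scaling, with sums of 40521 to 40631 and 42705 to 43146, where Laptm5 had means of 13128 and 14670 and Ptprc of 11566 and 11543. Of 5 neutrophil markers tested 4 were higher and 1 lower under TMM, against 4 and 0 under the other scaling, with sums of 9435 to 9705 and 10583 to 10938, S100a9 at means of 3479 and 3875 and Csf3r at 2461 and 2745, and the 1 lower gene was not called without sham replicate 2 or without PNX replicate 2. None of these markers was at 0 in all libraries, and their part in the values of the ETS factors was not tested.

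The SoxF genes Sox7 and Sox18 went in opposite directions under TMM, while under the scaling to endothelial genes Sox18 was higher and Sox7 was not called. Sox7 lies on the forward strand at chr14:63943706-63950732 and had 11494 and 11650 normalized counts in sham and 9769 and 9500 in post-PNX ECs. It fell by 16.7% (log2 fold change -0.26, standard error 0.022, edgeR adjusted p = 8.8e-17), and when scaled to endothelial genes its change was 0.02 with an interval from -0.027 to 0.064. Sox18, on the reverse strand at chr2:181669837-181671640, had 8351 and 8774 in sham and 9475 and 9794 in post-PNX ECs. Here both post-PNX libraries were above both sham libraries. Sox18 rose by 12.5% (log2 fold change 0.17, standard error 0.023, edgeR adjusted p = 3.5e-09) and by 0.45 on the log2 scale (edgeR adjusted p = 2.3e-14) when scaled to endothelial genes.

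The remaining SoxF gene, Sox17, an arterial factor that was named here for its family and with its values known, had 7482 and 7467 normalized counts in sham and 8383 and 8637 in post-PNX ECs. It lies on the reverse strand at chr1:4490928-4497426. A transcript on the opposite strand, Gm37587, shares 804 bases, or 16.8%, of the Sox17 exons. Sox17 rose by 0.19 on the log2 scale (edgeR adjusted p = 2.0e-10). The ratio of Sox18 to Sox7 FPKM within a library was 1.47 and 1.52 in sham and 1.96 and 2.08 in post-PNX ECs, and the ratio of Sox17 to Sox7 was 0.522 and 0.514 against 0.688 and 0.729. The ratio of Sox18 to Sox17 was 2.81 and 2.95 against 2.84 and 2.85. Sox7 was thus lower relative to both other SoxF genes in post-PNX ECs, while the ratio of Sox18 to Sox17 overlapped between the groups.

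Of the 9 SOX factors outside the 10, Sox17 included, 5 were higher and 2 lower under TMM, and 7 were higher and 0 lower when scaled to endothelial genes. Sox12 rose by 1.18 on the log2 scale, from a mean of 148.9 to 334.4 normalized counts, Sox4, which is broadly expressed in progenitor cells, by 0.46 and Sox6 by 0.40. Sox11 fell by 0.32 and Sox13, which had the highest FPKM of this list, by 0.16, both under TMM. Sox9, chosen after its values were seen, was the other one past a log2 fold change of 1, at means of 45.92 and 99.11.

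MEF2C, which controls vessel integrity and induces KLF2 in ECs, is encoded at chr13:83504017-83667079 on the forward strand. Mef2c had 3136 and 3126 normalized counts in sham and 3404 and 3304 in post-PNX ECs. The sham libraries were nearly equal, and both post-PNX libraries were above them. It rose by 7.16% (log2 fold change 0.10, standard error 0.031, edgeR adjusted p = 0.00383) and by 0.38 on the log2 scale (edgeR adjusted p = 7.6e-11) when scaled to endothelial genes. The TMM call was lost without PNX replicate 1 (0.08, adjusted p = 0.0939), without sham replicate 1 (0.10, adjusted p = 0.0151), without sham replicate 2 (0.10, adjusted p = 0.0159) and with DESeq2's Wald test (adjusted p = 0.0702). The window of 250 bases before the first RefSeq start given for Mef2c is chr13:83503784-83504033 on the forward strand. It is shown beside those of Gata2 and Tal1 for a factor that was higher, with motifs in capitals. The window ends past base 83504017, where the gene begins in the positions used here.
Mef2c: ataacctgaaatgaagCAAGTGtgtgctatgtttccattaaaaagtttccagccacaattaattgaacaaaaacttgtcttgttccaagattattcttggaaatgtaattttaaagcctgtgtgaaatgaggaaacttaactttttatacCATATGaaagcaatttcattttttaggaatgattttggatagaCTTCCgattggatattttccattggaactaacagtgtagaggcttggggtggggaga
It holds GGAAG once, on the opposite strand, and 2 E-boxes. The deposited Mef2c transcript starts at base 83504206, past the end of this window.

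None of the 7 other MEF2 factors and class IIa histone deacetylases was higher under TMM and 5 were lower, whereas 4 were higher and 1 lower when scaled to endothelial genes. Hdac7, the deacetylase that represses MEF2 in ECs and the one with the highest FPKM, fell by 0.27 on the log2 scale, Hdac9 by 0.21, Hdac5 by 0.18 and Mef2a by 0.14, all under TMM. The fifth, Mef2b, chosen after its values were seen, was low, at means of 24.12 and 7.83. Klf2, a flow-induced factor, fell from a mean of 26646 to 16712 normalized counts, by 0.67 on the log2 scale (edgeR adjusted p = 5.1e-39), and was lower under both scalings.

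All 10 macrophage and monocyte markers were higher beside Mef2c, which myeloid cells also express. Their summed normalized counts were 169643 to 170403 in sham and 224981 to 226063 in post-PNX ECs. Most of the sum was Lyz2, at means of 144686 and 166745, and Mrc1 was at 9282 and 15118. Under TMM 5 of the 10 passed a log2 fold change of 1, the largest being C1qb at 2.98, chosen after its values were seen. Of 7 epithelial markers 5 were lower and 1 higher under TMM, against 4 and 2 when scaled to endothelial genes, with sums of 230888 to 231242 and 152272 to 153176 and with Sftpb at means of 46260 and 29399, and the 1 higher gene was not called without PNX replicate 2. No marker of these lists was at 0 in all libraries, and their part in the value of Mef2c or of the other factors was not tested.

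The list of 12 further endothelial factors, to which Klf2 belongs, had 5 higher and 5 lower genes under TMM and 7 higher and 4 lower genes when scaled to endothelial genes. Epas1, the hypoxia-inducible factor HIF2A and the one with the highest FPKM of the list, fell from a mean of 260639 to 172041 normalized counts, by 0.60 on the log2 scale. Klf4 fell by 0.49 and the Notch target Heyl rose by 0.66. Over all 7 lists of relatives and partners, 82 genes in all and 79 tested, 24 were higher, 34 lower and 21 not called under TMM, with a median of -0.07.

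**Figure D2:**
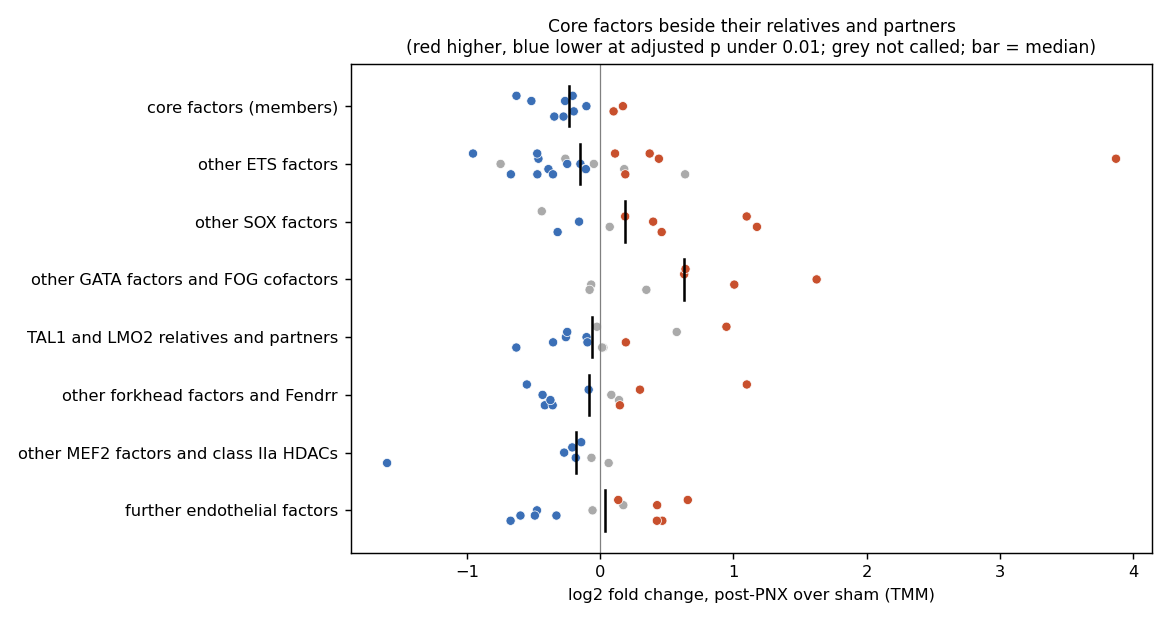
Log2 fold change of post-PNX over sham ECs under TMM (x axis) for each tested gene of the 10 factors and of 7 lists of relatives and partners, with red for genes called higher, blue for lower and grey for not called at an adjusted p under 0.01, and a bar at each median. The median is -0.24 for the 10 factors and 0.63 for the other GATA factors and FOG cofactors, and the point at 3.87 is Etv4; scaled to endothelial genes, the medians become 0.05 and 0.91.

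The 10 factors also differed in level, which is compared between genes by the deposited FPKM, a value per transcript length. Foxf1 was highest in every library, at 167.8 and 170.2 FPKM in sham and 117.1 and 120.6 in post-PNX ECs, and its mean over all libraries was above that of 98.3% of the genes tested. Sox18 came next at a mean of 71.8 FPKM in sham and 81.3 in post-PNX ECs, then Ets1 at 66.8 and 58.6 and Gata2 at 63.4 and 41.3. Lmo2, Sox7 and Erg followed with 50.8, 48.1 and 46.3 FPKM in sham and 40.3, 40.3 and 38.5 in post-PNX ECs. Fli1, at 11.6 and 10.9, Tal1, at 7.61 and 6.62, and Mef2c, at 6.62 and 7.13, were the lowest of the 10, and Mef2c still stood above 57.8% of the genes tested.

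In sham ECs no neighbours in this order overlapped between libraries. In post-PNX ECs Lmo2, at 39.68 and 40.86 FPKM, and Sox7, at 40.93 and 39.70, could not be put in order, and Gata2, at 40.97 and 41.53, lay just above both. Mef2c, at 7.25 and 7.02, stood above Tal1, at 6.82 and 6.42, which is the reverse of their order in sham ECs.

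**Figure D3:**
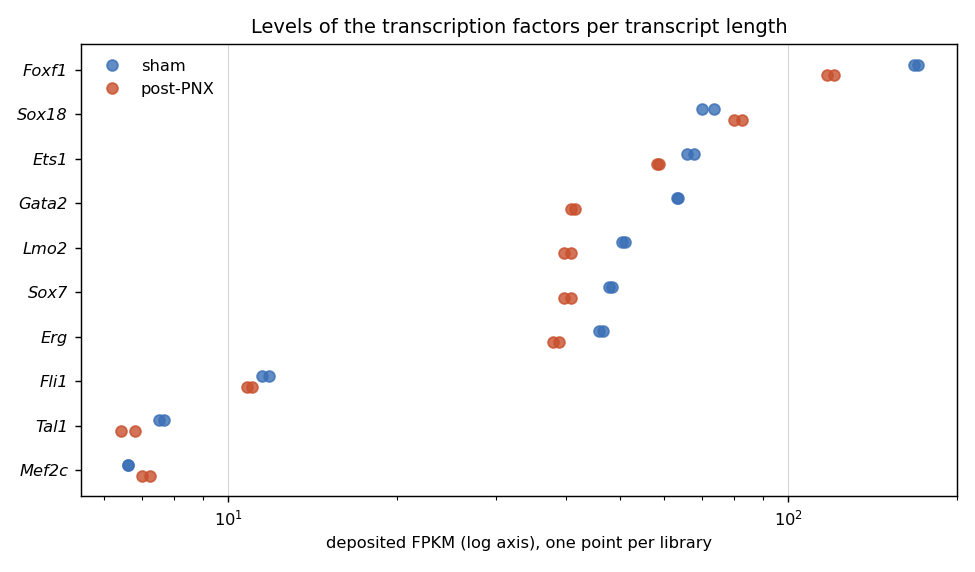
Deposited FPKM of the 10 factors (log axis), 1 point for each sham (blue) and post-PNX (red) library, ordered by the mean over all libraries. Foxf1 lies between 117.1 and 170.2 FPKM, and the post-PNX points of Gata2 at 40.97 and 41.53 FPKM have moved down to those of Lmo2 and Sox7.

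The endothelial surface and junction genes themselves were mostly lower under TMM, with 10 of 12 lower, 1 higher and a median of -0.31, whereas the scaling that equalizes their geometric mean left 6 higher and 6 lower. Eng, a TGF-beta coreceptor, fell by 0.54, Flt1, a VEGF receptor, by 0.53, Tek (Tie2) by 0.50, Egfl7 by 0.43, Robo4 by 0.43 and Kdr, the main VEGF receptor, by 0.40 on the log2 scale, and these 6 were lower under both scalings. Cdh5 and Esam, junction genes, fell by 0.22 and 0.22, Cldn5 by 0.15 and Tie1 by 0.08 under TMM, and all 4 were higher when scaled to the list. Pecam1, which encodes the CD31 used for capture, had a log2 fold change of -0.01 (edgeR adjusted p = 0.636), and Emcn, a capillary and venous sialomucin, rose by 0.11. Summed over the 10 factors, normalized counts were 111941 to 112257 in sham and 90416 to 91044 in post-PNX ECs.

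**Figure D4:**
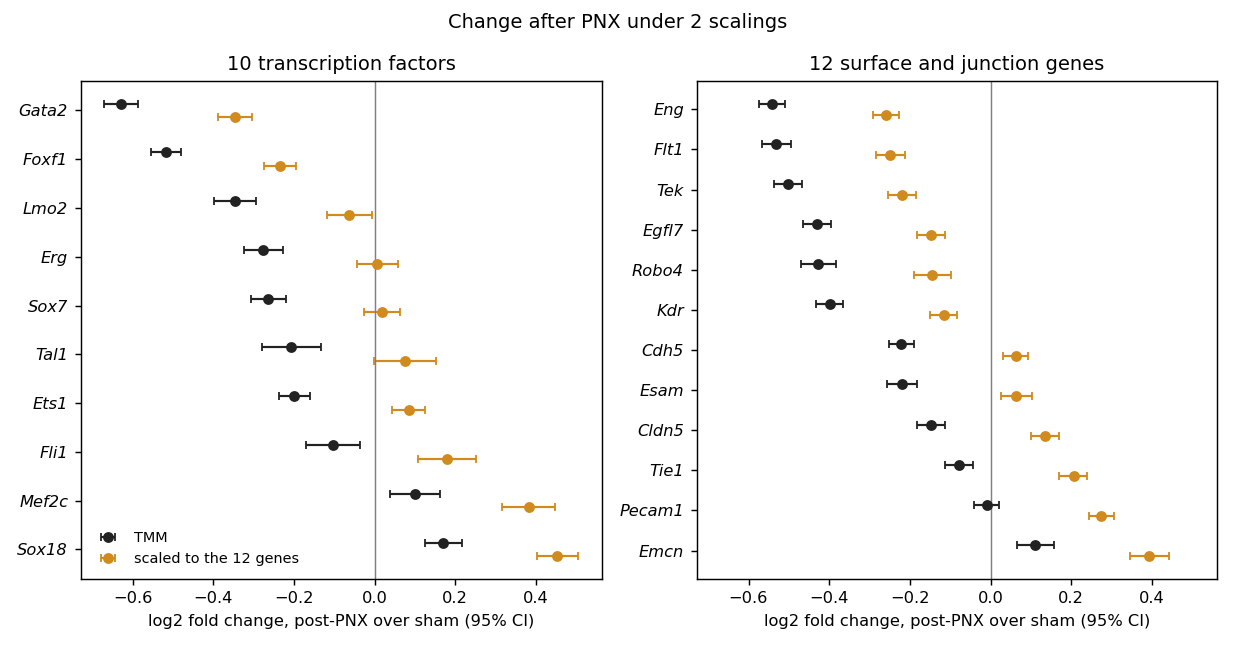
Log2 fold change of post-PNX over sham ECs with its 95% interval (x axis) for the 10 factors (left) and the 12 endothelial genes (right), under TMM (black) and scaled to the geometric mean of the 12 genes (orange). The second scaling moves the median of all genes by 0.28, so that Erg, at -0.28 under TMM, comes to 0.01, while Gata2 stays lower at -0.35 and Foxf1 at -0.23.

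The change in scaling moves every gene by nearly the same amount, 0.28 on the log2 scale over all genes, and so leaves the order of the factors as it is. In that order Gata2, Foxf1 and Lmo2 stood lowest, Erg, Sox7, Tal1 and Ets1 lay between -0.28 and -0.20, and Fli1, Mef2c and Sox18 stood highest. Tested against a minimum change of 1.2-fold with edgeR's glmTreat under TMM, only Gata2, Foxf1 and Lmo2 were called, all as lower. Among the 79 tested relatives and partners this test called 16 higher and 16 lower. Its share over all genes is not given here, so the count of factors cannot be set against it.

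For 4 of the factors the tables list several transcripts, 4 for Lmo2 and 2 each for Ets1, Mef2c and Tal1. A read was counted on every transcript it overlaps, so these are not separate reads, and no transcript of a gene held less than 97.78% of the counts of the largest one. Their log2 ratios of post-PNX to sham differed little within a gene, from -0.345 to -0.342 for Lmo2 and from -0.199 to -0.194 for Ets1. The choice of transcript thus had little room to change the values of these 4 genes.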

How the data were processed

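Polyadenylated RNA of CD31-captured lung ECs was sequenced as paired ends from a stranded library kit. The submitters' processing notes name STAR and mm10, and the counting program is not given in the sources used here. The authors deposited, for each library, whole-number read counts and FPKM for each of 33068 RefSeq transcripts. Tests used the counts, levels between genes used the FPKM values that the authors deposited, and the TPM values were not used. For each symbol the transcript that collected most counts was taken.

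The counts were fitted with edgeR 4.0.16 under R 4.3.3 (filterByExpr, TMM, quasi-likelihood F test without covariates), with p adjusted by the Benjamini-Hochberg method over 16208 genes, and DESeq2 1.42.0 served as an alternative. A gene was called at an adjusted p under 0.01. The standard error is the log2 fold change over the square root of F, and intervals are at 95%. Libraries had between 41367438 and 50952879 counts, and the limit of 3 counts covers counting error only. Between replicates the mean chi-square per gene was 1.76 (sham) and 1.52 (PNX), more than counting noise gives. The fits were tested on simulated data.

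The members and all lists were chosen with earlier results of these data known. Named genes are the 10 factors, the 12 endothelial genes, in each list of relatives up to 4 called genes with the largest change and a mean of at least 100 normalized counts and the one with the highest FPKM, and in each list of other cells the 2 with the most counts. The alternatives concerned scaling (size factors of DESeq2, total counts alone, the 12 endothelial genes), filtering (none, or a mean count of 50 or more), the test (Wald test of DESeq2, glmTreat against 1.2-fold, a block for the replicate number), the sum over transcripts, an adjusted p under 0.05, and leaving out each library in turn. Lmo3 and Fev did not pass the filter. A B cell marker of the planned list is not reported here. Positions come from the annotation of GRCm38.p6, the build of mm10.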

Additional observations from a re-analysis of the deposited data

Results flagged for a closer look

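Xist had at least 31872 and at most 33792 normalized counts per library, and it is named because the labels give the mice as male. The 44 genes of the Y chromosome in the tables had 0 counts in all 4 libraries. Both groups show this alike, and none of the 10 factors lies on the X or Y chromosome.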

How the results depend on the processing

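Gata2 and Foxf1 kept their direction and call under all 14 alternatives, and DESeq2's size factors, library size alone, both filters on low counts and an adjusted p under 0.05 changed no call among the 10 factors. Scaling to the 12 endothelial genes gave 4 factors higher and 2 lower, turned the log2 fold changes of Erg (0.007), Fli1 (0.18), Ets1 (0.084), Sox7 (0.019) and Tal1 (0.075) positive, no longer called Lmo2 (-0.063), and gave 47 relatives and partners higher and 14 lower and 6 endothelial genes higher and 6 lower. DESeq2's Wald test left 1 factor higher and did not call Fli1 (-0.10) or Mef2c (0.10). The glmTreat test, which asks for more than a 1.2-fold change, called 0 factors higher and 3 lower, not Erg (-0.28), Fli1 (-0.10), Ets1 (-0.20), Sox7 (-0.26), Sox18 (0.17), Tal1 (-0.21) or Mef2c (0.10). It called 16 relatives and partners higher and 16 lower, and 0 endothelial genes higher and 6 lower. With counts summed over transcripts Fli1 (-0.10) was not called. With each library left out in turn, between 1 and 2 factors were higher and between 7 and 8 lower, Fli1 ranged from -0.13 to -0.08 and Mef2c from 0.077 to 0.12. A library left alone in its group is then assumed to vary like the other group. The cause was not tested for any of these.

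The replicate numbers of the titles do not tie a sham pool to a post-PNX pool, which come from different mice, and deviations of same-numbered libraries correlated at 0.0303 across genes. The replicate block changed no call among the factors, with 2 higher and 8 lower and Gata2 at -0.63.

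With 2 libraries per group the p-values rest on the spread between 2 pools of mice, with dispersions estimated over all genes. That spread was small, at a mean chi-square per gene of 1.76 in sham and 1.52 in post-PNX libraries. Small adjusted p-values are thus no measure of the variation between single mice. All 10 factors had at least 1785 counts in each library, so depth limits the low relatives more than the factors.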
